A study of Homo sapiens with 3 samples.

Results

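The 84 genes for the proteins of the cytosolic ribosome were followed in RNA-seq libraries of T24 cells, a human bladder carcinoma line. They were taken from the 58381 genes of the count table by symbol, as protein-coding genes named RPL, RPS, RPLP or RPSA, with no pseudogene among them. The 84 comprised 52 genes of the large and 32 of the small subunit. Symbols ending in L or L1 denote paralogs (RPL3L, RPL7L1, RPL10L, RPL22L1, RPL26L1, RPL39L and RPS27L), so 77 core genes and 7 paralogs were described apart. There were 3 libraries, 1 per condition: untreated cells (Ctrl), cells exposed to 10 Gy from a 137Cs irradiator (RT), and cells with a lentiviral shRNA against HDAC6 that received the same dose (RT + shHDAC6). HDAC6 is a deacetylase that acts largely on cytoplasmic proteins such as tubulin. The protocol text names a pLKO.1 control vector, puromycin selection and no time after irradiation, and it does not say which of the other libraries carried that vector. All 3 libraries came from 1 line, and the knockdown used 1 shRNA as far as the labels tell.

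A ribosome needs the proteins of both subunits in nearly equal numbers, and their genes are spread over the genome and among the most highly expressed of any growing cell. Most of their mRNAs begin with a cytosine followed by an unbroken run of pyrimidines, the terminal oligopyrimidine (TOP) tract, through which mTOR and LARP1 set how strongly they are translated. Free RPL5 and RPL11 bind MDM2 when ribosome assembly fails, and introns of many ribosomal protein genes carry small nucleolar RNAs (snoRNAs) that guide modification of other RNAs. Paralogs such as RPL22L1 or RPS27L encode proteins that can stand in for their parent.

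The genes lay on 21 chromosomes, with 12 on chromosome 19, and 28 of them held 60 snoRNA genes inside their span. Transcription starts of 67 of the 84 were listed by RefSeq (GRCh38.p14), with 83 starts in all. A cytosine at the start followed without a break by further C or T, at least 5 bases in all, was present at a start of 47 of the 67 genes. It was found at 56.6% of the 83 starts and at 4.07% of the 35116 starts of all genes. The run was 5 to 19 bases long, with a median of 8. Of the 47 genes with the tract, 46 were core genes and 1 was a paralog, RPL22L1. The following starts are those of members whose levels are described further on. Each window holds 10 bases before the start and 20 from it, written in the direction of transcription, with the pyrimidine run in capitals. RPS27 and its paralog RPS27L stand together because only the parent has the tract at its listed start.
RPLP0 (chr12:120201092-120201121, minus strand): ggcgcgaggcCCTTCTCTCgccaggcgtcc
RPLP1 (chr15:69452808-69452837, plus strand): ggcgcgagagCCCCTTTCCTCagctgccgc
RPL13A (chr19:49487598-49487627, plus strand): aaacctcctcCTTTTCCaagcggctgccga
RPL24 (chr3:101686699-101686728, minus strand): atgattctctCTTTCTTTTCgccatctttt
RPL22 (chr1:6199576-6199605, minus strand): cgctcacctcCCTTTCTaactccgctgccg
RPL22L1 (chr3:170870176-170870205, minus strand): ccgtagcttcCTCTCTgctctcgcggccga
RPS27 (chr1:153990752-153990781, plus strand): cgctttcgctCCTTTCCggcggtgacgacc
RPS27L (chr15:63157458-63157487, minus strand): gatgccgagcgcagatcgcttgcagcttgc
RPS6 (chr9:19380217-19380246, minus strand): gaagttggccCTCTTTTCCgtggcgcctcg
RPL36A (chrX:101391001-101391030, plus strand): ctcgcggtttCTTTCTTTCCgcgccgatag
RPL26 (chr17:8383174-8383203, minus strand): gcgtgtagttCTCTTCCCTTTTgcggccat
RPS10 (chr6:34426050-34426079, minus strand): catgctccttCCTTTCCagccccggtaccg

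In the 300 bases around these starts (250 before, 50 after, both strands searched), the letters CCGGAAG, which hold the core of ETS-family binding motifs, were found at 33.7% of the members' starts and at 10.3% of all starts. AAGATGGC, the core of the YY1 motif, was found at 8.43% and 2.89%. The E-box CACGTG was found at 6.02% and 7.26%, and TATAAA, the TATA box, at 8.43% and 11.5%. Matches of letters are a description and no evidence of binding.

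The libraries totalled 41811165 (Ctrl), 35959265 (RT) and 35424086 counts (RT + shHDAC6), the order in which sets of 3 values are given throughout. HDAC6 had 3098, 2383 and 2170 counts. After scaling, the knockdown library held 87.2% of the HDAC6 level of RT, a log2 ratio of -0.20 (95% counting interval -0.28 to -0.11). The epithelial keratins KRT7, KRT8, KRT18 and KRT19 were detected with 441 to 9048 counts. KRT7 stood apart, with 3533, 3854 and 597 counts. The mesenchymal gene VIM had 74147 to 121716 counts, the leukocyte gene PTPRC 57 to 120 and the endothelial gene PECAM1 209 to 489. Mitochondrially encoded RNA took 3.75%, 6.09% and 5.51% of the counts. Log2 ratios were taken after TMM scaling, and compared with library totals the scaling added 0.22 to every log2 ratio of RT against Ctrl and 0.13 to those of RT + shHDAC6 against Ctrl, and took 0.084 from those of RT + shHDAC6 against RT. With 1 library per condition no difference had a replicate check, and intervals cover counting error only. A gene was called higher or lower where its log2 ratio was at least 0.322 from 0, and this distance is named the call line in what follows.

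All 84 genes reached 10 counts in at least 1 library, 81 had at least 100 in every library and 72 had at least 1000 in every library. Together they took 2.18% of the counts in Ctrl (95% Clopper-Pearson interval 2.17 to 2.18), 1.78% in RT (1.78 to 1.79) and 2.02% in RT + shHDAC6 (2.02 to 2.03). The share was thus lowest in RT, and the 3 intervals did not overlap. Without mitochondrially encoded RNA in the totals, the shares were 2.26%, 1.90% and 2.14%, in the same order. In RNA of a whole culture, fewer cells with a given RNA and less of it per cell cannot be told apart. Counts on the large subunit core genes were 1.99 times those on the small subunit core genes in Ctrl, 1.89 times in RT and 1.86 times in RT + shHDAC6. The 5 genes with the most counts held 22.1%, 19.9% and 19.1% of the members' counts.

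Levels within one library are comparable between genes only per length of mRNA. In counts per kilobase, RPL5 had the highest level in Ctrl at 49815, and RPS2, which sits at the mRNA entry channel of the small subunit, followed with 34934. RPS25 had 30197 counts per kilobase and RPSA, also known as the laminin receptor precursor, 28577. The median over the 72 core genes with under 40% of the mRNA covered on the same strand by other gene rows was 11012.8. Long annotated mRNAs understate some genes on this scale, since the lengths were those of the canonical transcript.

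**Figure D1:**
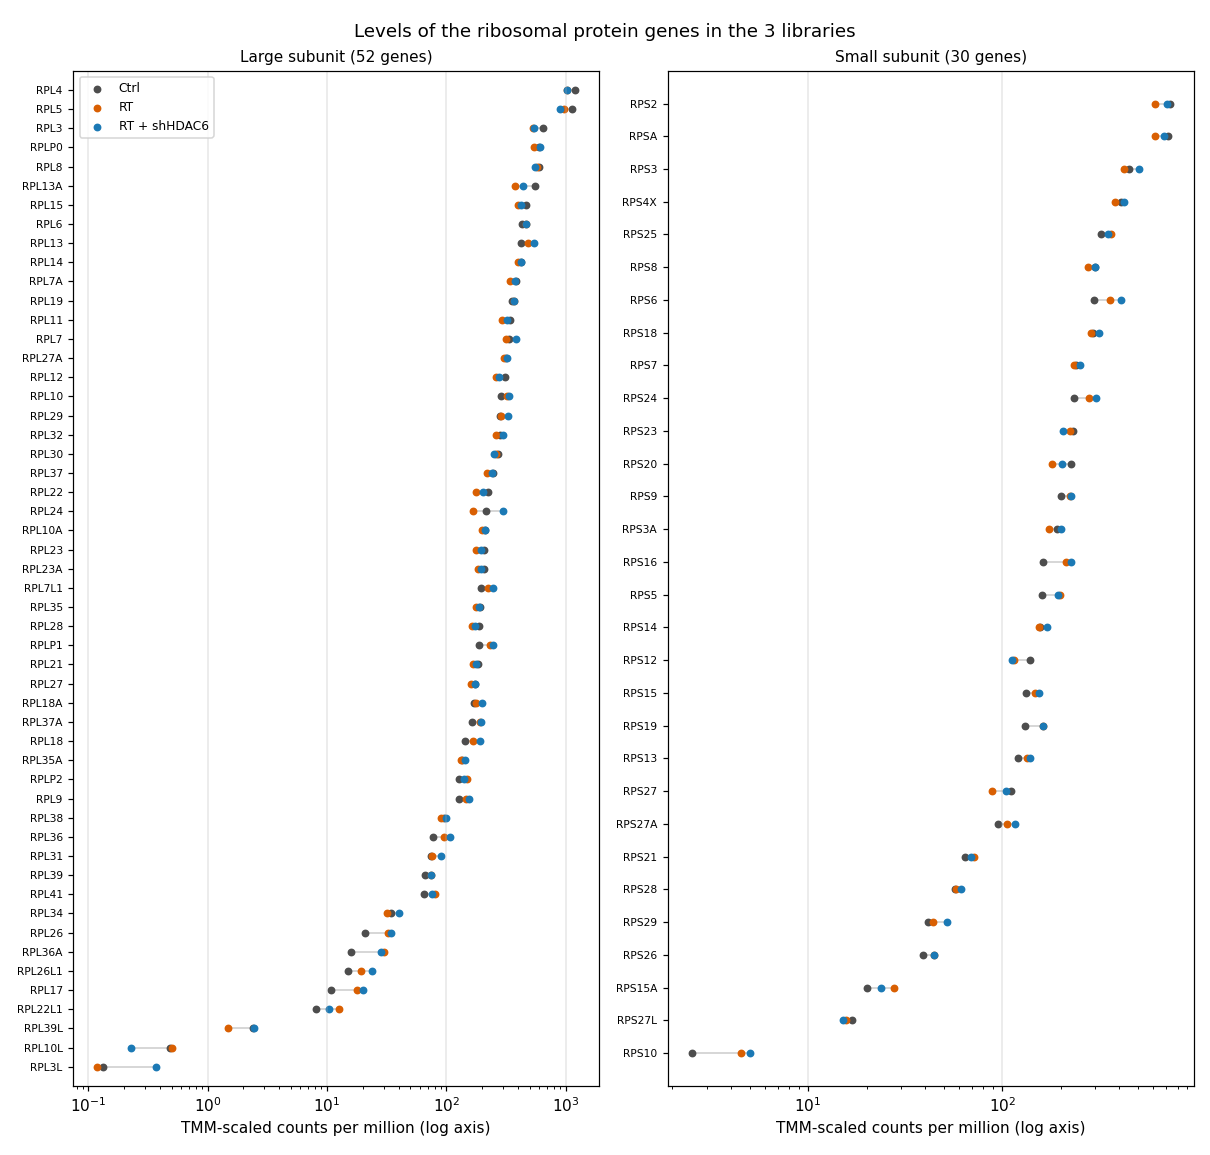
Level of 82 of the 84 ribosomal protein genes in the Ctrl, RT and RT + shHDAC6 libraries, as TMM-scaled CPM on a log axis, 1 point per library; the large subunit is on the left and the small subunit on the right. Most genes have their 3 points close together, while RPS10, RPL17 and RPL36A have a lower point in Ctrl, and RPL24 has its lowest in RT and its highest in RT + shHDAC6.

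The first comparison asked how the 84 genes stood in irradiated against untreated cells. The median log2 ratio of RT against Ctrl was -0.034 (SD over genes 0.31), with 39 genes above and 45 below 0, and the median turned to 0.024 with median-of-ratios scaling. A set of 7664 abundant genes, those that reach 1000 counts in any library, had a median of 0.10. The members' median minus that median was -0.13. No scaling can change this gap, since each shifts all ratios of a comparison by the same amount. Of the members, 9 were called higher (10.7%) and 4 lower (4.76%). Among all 20527 genes that reach 10 counts the shares were 25.8% and 33.8%, and among the abundant genes 32.2% and 16.2%, and both shares of the members were below these. The counts moved with the scaling, and with library totals 6 members were higher and 31 lower. The NOISeq procedure named in the study's methods, which simulates noise for single libraries, called 32 of the 84 members higher and 29 lower. It called 19.5% higher and 21.0% lower among the 32923 genes with a count in either library, a wider set than the 20527. The procedure also weighs the absolute difference in CPM, which favours abundant genes. Its shares among the abundant genes were not computed, so these shares cannot be set against those by fold. Positive ratios under 0.22 in this comparison turn negative with library totals, and 18 genes were above 0 and 38 below 0 under all 4 scalings. Of the 84 counting intervals, 34 lay above 0 and 39 below. The 7664 abundant genes had 3957 intervals above 0 and 2572 below, and 4487 ratios above 0 and 3177 below. The 46 large subunit core genes had a median of -0.066, and the 31 small subunit core genes one of 0.069.

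Among genes with at least 100 counts, the highest ratios belonged to core genes of low level. RPL36A had 718 counts in Ctrl, 1012 after irradiation alone and 988 with the knockdown, and a log2 ratio of RT against Ctrl of 0.93 (0.79 to 1.07). RPS10, a small subunit gene mutated in some cases of Diamond-Blackfan anaemia, had 114, 151 and 176 counts and a ratio of 0.84 (0.48 to 1.20). In both genes Ctrl was low and the 2 irradiated libraries were close to each other. RPL17 had 489, 597 and 704 counts and a ratio of 0.72 (0.55 to 0.90). RPL26, which sits near the exit of the polypeptide tunnel, had 951, 1096 and 1207 counts and a ratio of 0.64 (0.51 to 0.77). These 4 intervals lay wholly above the call line.

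These genes had a property in common that the choice of genes did not use. They were among 5 core genes with at least 40% of the mRNA covered, on the same strand, by other gene rows of the table: 96.9% for RPL17, 84.0% for RPS10, 65.3% for RPL26 and 43.8% for RPL36A. The 40% line was drawn after the values were seen. The covering rows included readthrough genes (RPL17-C18orf32, RPS10-NUDT3 and RPL36A-HNRNPH2), and each covering row had 0 counts in all 3 libraries, which allows up to 3 counts in each. Per kilobase, the 5 core genes had 194 to 1801 counts in Ctrl with a median of 796, against the median of 11012.8 for the other 72 core genes. How a read that fits 2 gene rows was handled in the counting is not given in the sources used here. The part of this in the ratios was not tested.

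Without these 5, the 72 other core genes had a median of -0.050 and an SD over genes of 0.21, against an SD of 0.49 over the abundant genes. In this group 2 genes were called higher (2.78%), against 32.2% of the abundant genes, and neither passes the call line with library totals. RPS16, a small subunit protein near the decoding centre, was at 163, 214 and 225 TMM-scaled CPM in Ctrl, RT and RT + shHDAC6, with a log2 ratio of 0.40 (0.35 to 0.44) for RT against Ctrl. RPS15A had 907, 927 and 827 counts and a ratio of 0.47 (0.33 to 0.60), with 9.9% of its mRNA covered by a row at 0 counts. A further pair came close to the line from below. RPS19, the gene most often mutated in Diamond-Blackfan anaemia, was at 131, 162 and 163 CPM (0.31, 0.26 to 0.36). RPLP1 was at 189, 233 and 244 (0.31, 0.26 to 0.35).

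The 3 core genes called lower (4.17% of the 72, against 16.2% of the abundant genes) were all of the large subunit. RPL13A, which also joins a complex that silences translation of inflammatory mRNAs, was at 555, 374 and 443 TMM-scaled CPM in Ctrl, RT and RT + shHDAC6. Its log2 ratio of -0.57 (-0.60 to -0.54) was the lowest of the core genes, and its level in RT was the lowest of the 3 libraries. RPL24, which forms a bridge between the subunits, was at 215, 169 and 296 (-0.35, -0.40 to -0.30). RPL22 was at 224, 179 and 203 (-0.33, -0.37 to -0.28). Just short of the line were RPS20 with a log2 ratio of -0.320, RPS27 with -0.31 and RPL3, a protein next to the peptidyl transferase centre, with -0.29. All 6 had a lower level in RT than in either other library. For RPL3 the log2 ratio of RT + shHDAC6 against RT was 0.022, with an interval across 0 (-0.008 to 0.052).

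**Figure D2:**
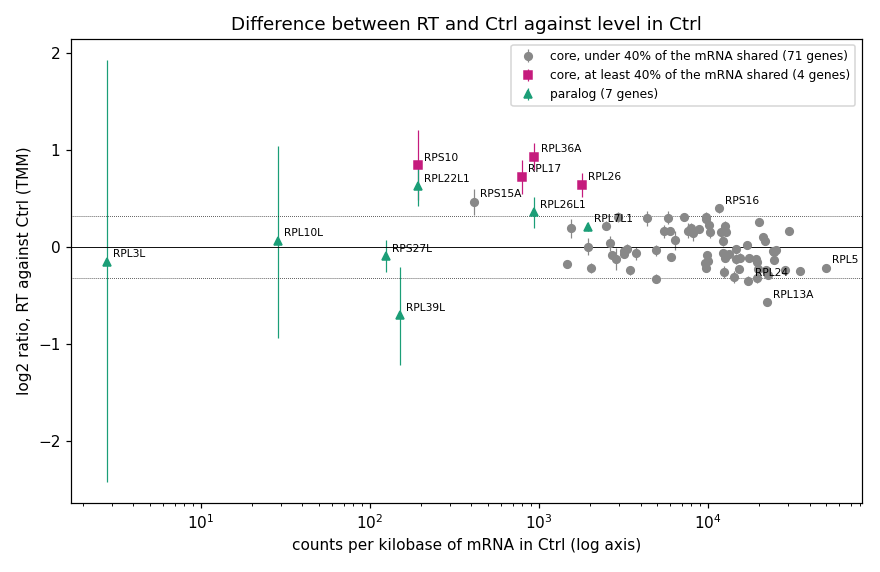
Log2 ratio of RT against Ctrl (TMM-scaled, vertical) against counts per kilobase of mRNA in Ctrl (horizontal, log axis) for 82 of the 84 ribosomal protein genes, with 95% counting intervals as bars and dotted lines at the call line of 0.322. The 4 plotted core genes with at least 40% of the mRNA shared (squares) lie at the upper left at 0.64 to 0.93, and RPL13A is the lowest core gene at -0.57.

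Several members with well-known roles of their own lay within the call line in this comparison. RPL5 was at 1129, 972 and 889 TMM-scaled CPM, with a log2 ratio of RT against Ctrl of -0.22 (-0.24 to -0.20). RPL11 was at 341, 291 and 326 (-0.23, -0.27 to -0.19). Both partners of the MDM2-binding complex were thus lower in RT than in Ctrl by about the same ratio. RPS6, the substrate of S6 kinase, was at 297, 361 and 407 (0.28, 0.25 to 0.32). RPSA was at 718, 609 and 682 (-0.24, -0.26 to -0.21), and RPS27A, made as a fusion with ubiquitin, at 95.2, 106 and 117 (0.16, 0.10 to 0.22). In TMM-scaled CPM, RPS6 and RPS27A were lowest in Ctrl and highest in RT + shHDAC6, but the RT against Ctrl ratio of RPS27A turns negative with library totals. On the X chromosome, RPS4X had a log2 ratio of -0.11 and RPL10 one of 0.17, which was -0.049 with library totals. Of the P-stalk, the lateral arm that recruits elongation factors, RPLP0 was at 598, 546 and 610 (-0.13, -0.16 to -0.10) and RPLP2 at 128, 148 and 141 (0.21, 0.16 to 0.27). RPLP1 and RPLP2 had intervals above 0 and RPLP0 one below 0, but RPLP2 was at -0.0067 when scaled by library totals.

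Across the 72 core genes, the log2 ratio of RT against Ctrl went with the level and with snoRNA content. Spearman's rho was -0.48 with the counts in Ctrl, which also enter the ratio, and -0.46 with the number of snoRNA genes inside the gene. It was -0.086 with mRNA length. The 27 genes that host a snoRNA had a median of -0.16, with 21 of 27 below 0, and the 45 that host none had a median of 0.022, with 21 of 45 below 0. RPL13A holds 4 snoRNA genes, RPL3 holds 3 and RPL4 holds 5, whereas RPL24, RPL22 and RPS16 hold none. The points share 1 pair of libraries and this split was chosen after the values were seen. Sequence likeness to other places went less with the ratio: rho was -0.19 with the share of 75-base windows of the mRNA found elsewhere in the genome. The 33 genes with at most 10% of such windows had a median of -0.035, and the 39 with more one of -0.076. The 67 members with a listed start include paralogs and genes with a shared mRNA. The 47 of them with the TOP tract at a listed start had a median of 0.022, and the 20 without it there one of 0.032. The starts used in these cells were not measured, so a gene without the tract at a listed start may still have it.

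The second comparison asked how the 84 genes stood in irradiated cells with the shRNA against HDAC6, set against irradiated cells without it. HDAC6 in RT + shHDAC6 was at 87.2% of its RT level. With 1 library per condition, an effect of the shRNA cannot be told apart from any other difference between the cultures. In RT + shHDAC6 against RT the members' median log2 ratio was 0.10, with 66 genes above and 18 below 0. The abundant genes had a median of -0.025, a gap of 0.13 that, as in the first comparison, no scaling can change. Of the 84 genes, 64 were above 0 under all 4 scalings used and 6 were below 0 under all 4. The differences were small: 5 members were called higher (5.95%) and 1 lower (1.19%), against 19.9% and 20.9% of all genes tested and 5.75% and 12.6% of the abundant ones. The NOISeq procedure called 39 of the 84 members higher and 5 lower. It called 12.8% higher and 15.6% lower among the 31682 genes with a count in either library. As in the first comparison, its shares among the abundant genes were not computed. The 77 core genes had an SD of 0.13 over genes, the abundant genes one of 0.31. Of the core genes, 62 were above 0, with 52 intervals above and 8 below 0. The 7664 abundant genes had 3454 ratios above 0, with 2162 intervals above and 2980 below 0. Large and small subunit core genes had similar medians, 0.098 and 0.11. Both this comparison and the first use the RT library, so a value that is low in that library lowers the one and raises the other.

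RPL24 had the largest log2 ratio of the core genes in this comparison. It had 9743, 5658 and 10368 counts, or 215, 169 and 296 TMM-scaled CPM. RT + shHDAC6 was the highest library and RT the lowest. The log2 ratio of RT + shHDAC6 against RT was 0.81 (0.76 to 0.86), a 1.76-fold difference, and 0.80 to 0.90 over the 4 scalings. Against Ctrl the knockdown library had a log2 ratio of 0.46 (0.42 to 0.50). No other row of the table shares the mRNA of RPL24 on its strand, and 19.3% of its 75-base windows occur elsewhere in the genome. The other core gene called higher was RPL34, with 34.5, 31.8 and 39.8 CPM and a ratio of 0.33 (0.21 to 0.44). RPL7, with 0.28 (0.24 to 0.32), and RPS3, a protein of the mRNA entry channel that also acts in DNA repair, with 0.26 (0.23 to 0.29), came next among core genes.

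At the other end no gene with at least 100 counts was called lower. RPS15A, with the lowest level per kilobase of the 72 core genes in Ctrl, had the lowest ratio of the core genes, -0.23 (-0.36 to -0.09). RPL5 was at 972 CPM in RT and 889 in RT + shHDAC6, a ratio of -0.13 (-0.15 to -0.11), whereas its partner RPL11 was at 291 and 326, a ratio of 0.16 (0.12 to 0.20). The intervals of the 2 partners lay on opposite sides of 0. RPS23 had a ratio of -0.12 (-0.16 to -0.07) and RPL36A one of -0.10 (-0.22 to 0.03). The 5 genes with at least 40% of the mRNA shared had a median of 0.077 here. In this comparison the 27 core genes that host a snoRNA and the 45 that do not had medians of 0.11 and 0.10. Among the 67 members with a listed start, paralogs included, those with and without the TOP tract at such a start had 0.12 and 0.090.

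**Figure D3:**
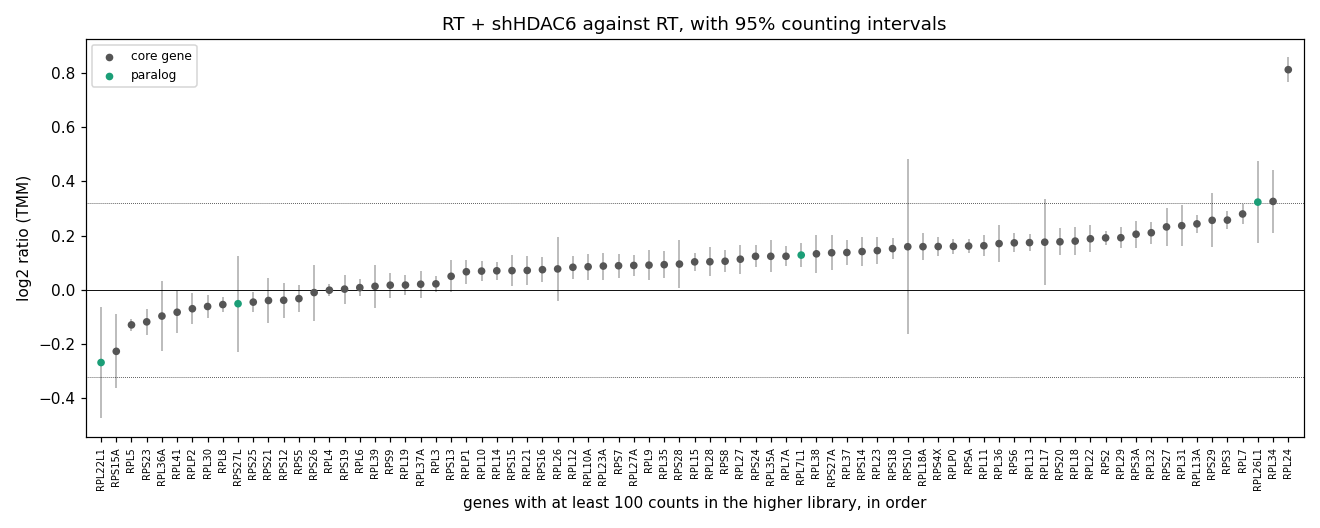
Log2 ratio of RT + shHDAC6 against RT (TMM-scaled, vertical) for 79 ribosomal protein genes with at least 100 counts in the higher of the 2 libraries, in order of the ratio; bars are 95% counting intervals and dotted lines mark the call line of 0.322. Most genes lie between 0 and 0.28, and RPL24 lies apart at 0.81.

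Set against untreated cells, RT + shHDAC6 had a median log2 ratio of 0.11, with 56 genes above and 28 below 0. The median turned to -0.027 when scaled by library totals. The 7664 abundant genes had 4423 ratios above and 3241 below 0. In this comparison 18 members were called higher (21.4%) and 3 lower (3.57%). The shares among all genes tested were 26.1% and 32.6%, and among the abundant genes 30.0% and 17.5%. By the NOISeq procedure 43 members were higher and 15 lower, with 19.6% and 21.2% of the 33073 genes with a count in either library. High ratios were those of the genes with a shared mRNA, measured against the same Ctrl library as before: 1.0 for RPS10, 0.90 for RPL17, 0.83 for RPL36A and 0.72 for RPL26. Core genes called higher with under 40% of the mRNA shared on the same strand included RPS16 (0.47, 0.42 to 0.52), RPL36 (0.47), RPL24 (0.46) and RPS6 (0.46, 0.42 to 0.49). RPLP1 (0.37, 0.33 to 0.42) was the stalk gene among them.

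The lowest ratio among core genes in this comparison was that of RPL5, with -0.35 (-0.37 to -0.32), and RPL13A followed with -0.32 (-0.35 to -0.30). RPS12 had -0.30, RPL3 -0.26 and RPL4 -0.23. RPL5 was the highest gene per kilobase in Ctrl with 49815 counts, and had 31725 in RT and 30282 in RT + shHDAC6, not scaled for library size. RPL13A lay closer to Ctrl in the knockdown library than in RT, where its ratio to the same Ctrl library was -0.57. The 27 genes hosting a snoRNA had a median of -0.051 against Ctrl, and the other 45 core genes one of 0.12.

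The 7 paralogs ranged from 4 to 8804 counts. RPL3L, expressed chiefly in muscle, had 6, 4 and 13 counts, and RPL10L, a testis gene, had 22, 17 and 8. Both passed the call line in RT + shHDAC6 against RT, with log2 ratios of 1.64 (-0.06 to 3.71) and -1.15 (-2.57 to 0.14), and both intervals crossed 0. At these counts no difference was detectable for either gene. RPL10L was the 1 member called lower in that comparison.

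The other paralogs were compared with their parents as a share of the counts of the pair, a value that does not depend on scaling and is no ratio of molecules, since the mRNAs differ in length. RPL22L1, which can replace RPL22, had 369, 421 and 365 counts and took 3.50% (3.16 to 3.87) of the pair in Ctrl, 6.57% (5.97 to 7.20) in RT and 4.87% (4.40 to 5.39) in RT + shHDAC6. The share was highest in RT, with 3 intervals that did not overlap. Its own log2 ratio was 0.63 (0.42 to 0.83) for RT against Ctrl and -0.27 (-0.47 to -0.06) for RT + shHDAC6 against RT, while RPL22 had -0.33 and 0.19. None of the 75-base windows of the RPL22L1 mRNA occurs elsewhere in the genome, and the coding sequences of the pair are 70.6% identical. Both starts of this pair carry the pyrimidine tract.

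RPL39L and RPL39 showed the opposite order. The paralog had 110, 50 and 85 counts and took 3.55% (2.92 to 4.26), 1.97% (1.47 to 2.59) and 3.14% (2.52 to 3.87) of the pair, lowest in RT. Its log2 ratios were -0.70 (-1.21 to -0.21) for RT against Ctrl and 0.70 (0.18 to 1.24) for RT + shHDAC6 against RT. The intervals of the share overlapped between RT and RT + shHDAC6 and not between RT and Ctrl. The coding sequences are 94.8% identical, and 93.4% of the windows of the RPL39 mRNA occur elsewhere in the genome, against 0% for RPL39L.

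RPL7L1, a nuclear protein of ribosome assembly, had 8804, 7523 and 8583 counts and was the most highly expressed paralog. It took 36.8% (36.2 to 37.4), 41.3% (40.6 to 42.0) and 38.8% (38.1 to 39.4) of the pair with RPL7, again highest in RT with intervals apart. Per kilobase the order within the pair was wider, with 1957 counts for RPL7L1 and 12272 for RPL7 in Ctrl. RPL26L1 had 679, 643 and 840 counts and log2 ratios of 0.36 (0.20 to 0.51) for RT against Ctrl and 0.32 (0.17 to 0.47) for RT + shHDAC6 against RT. Its share of the pair with RPL26 was 41.7%, 37.0% and 41.0%, and RPL26 is one of the 5 genes with a shared mRNA. RPS27L had 759, 526 and 530 counts and log2 ratios of -0.09 (-0.26 to 0.07) and -0.05 (-0.23 to 0.13), both with intervals across 0. Its share of the pair with RPS27 was 13.2% (12.3 to 14.1), 15.0% (13.8 to 16.2) and 12.6% (11.7 to 13.7).

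**Figure D4:**
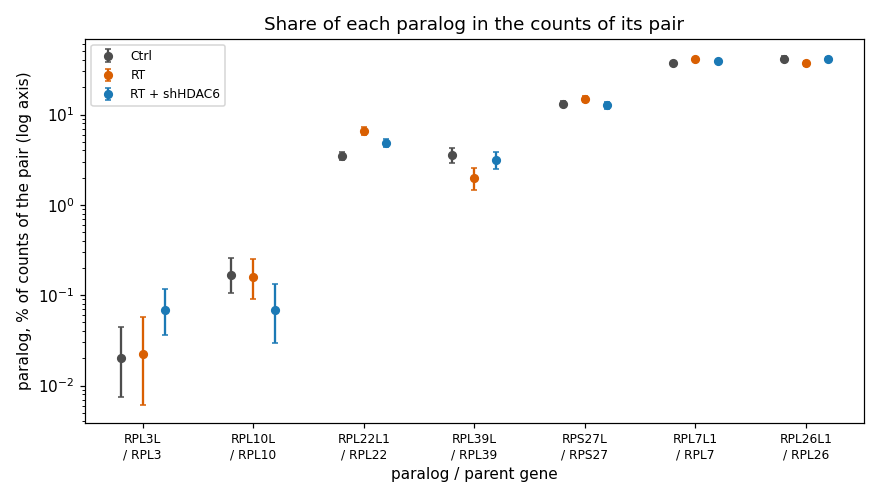
Counts of each paralog as a percentage of the counts of paralog and parent together (vertical, log axis) in the Ctrl, RT and RT + shHDAC6 libraries, for the 7 pairs, with 95% Clopper-Pearson intervals. RPL22L1 takes its highest share in RT at 6.57%, RPL39L its lowest at 1.97%, and the intervals of RPL3L and RPL10L overlap among all libraries.

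Genes that act with these proteins were taken from lists of translation genes. Ribosomal proteins under other symbols included FAU, RACK1 and RPL36AL. RPL36AL, a close copy of RPL36A, was the 1 of 4 called lower in RT against Ctrl, with 1757, 897 and 1273 counts and log2 ratios of -0.53 and then 0.44 for RT + shHDAC6 against RT. RPL36A had 0.93 and -0.10 in the same comparisons, and the interval of the latter (-0.22 to 0.03) crossed 0.

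Of 21 other TOP mRNAs, 20 were measured. Their median was -0.083 in RT against Ctrl, with 2 called higher (10%) and 4 lower (20%). The shares were 25.8% and 33.8% among all genes tested and 32.2% and 16.2% among the abundant genes. In RT + shHDAC6 against RT the median of the TOP mRNAs was 0.0056, with 1 higher (5%) and 0 lower (0%). There the shares were 19.9% and 20.9% of all genes tested and 5.75% and 12.6% of the abundant ones. TPT1, the translationally controlled tumour protein, had 25649, 12091 and 18965 counts and log2 ratios of -0.65 and 0.59 in these comparisons. EIF4B, a helper of the cap-binding helicase, had -0.56 in RT against Ctrl. EEF1D, a subunit of the elongation factor exchange complex, had 1.09 and EIF4A2 0.39. EEF1G was listed at 0 in all 3 libraries. Whether its reads were lost in the counting was not tested, so the 0 is no evidence that the gene is silent.

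Of 14 regulators of TOP mRNA translation, with a median of 0.11, 5 were called higher (35.7%) and 2 lower (14.3%) in RT against Ctrl. These shares were near the 32.2% and 16.2% of the abundant genes, and all genes tested had 25.8% and 33.8%. None of the regulators passed the line in RT + shHDAC6 against RT, where 5.75% of the abundant genes were higher and 12.6% lower. RPTOR, the mTOR complex subunit, had a log2 ratio of 0.65 for RT against Ctrl and EIF4G1, the scaffold of the cap complex, 0.55. EIF4EBP2, a repressor of cap binding, had -0.38 and RHEB, the activator of mTOR, -0.37. Of 8 partners of free ribosomal proteins, with a median of 0.17, 2 were higher (25%) and 0 lower (0%) in RT against Ctrl. The highest was GNL3, a nucleolar GTPase, with 0.48. MDM2, the ligase bound by RPL5 and RPL11, had 4174, 2637 and 2918 counts and a log2 ratio of -0.23. NOP53 had one of -0.04. None of these 8 passed the line in RT + shHDAC6 against RT.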

How the data were processed

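The read counts of the 3 libraries were deposited by the authors as whole numbers per gene without normalisation. Per the labels and the study's methods, reads were trimmed with cutadapt, aligned to GRCh38 with STAR (2.6.1a in the submitters' processing notes) and counted on GENCODE release 28 genes with featureCounts. The settings for strand and for reads on several genes are not given in the sources used here, so paralogs, pseudogenes and overlapping genes may share reads. The labels and the methods name different strand-specific library kits.

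Symbols, positions, canonical mRNA lengths and overlaps were taken from GENCODE release 44, to which 57754 of 58381 rows matched. TMM factors (edgeR 4.0.16, R 4.3.3) were computed over the 3 libraries. Log2 ratios were taken per gene, with a count of 0 set to 0.5 and 95% Clopper-Pearson intervals (scipy 1.17.1). Single libraries leave no residual spread, so no p-value could be computed by edgeR or DESeq2. A gene was called at a log2 ratio of at least 0.322 from 0, among genes that reach 10 counts in any library, and the procedure was tested on simulated data. Windows of 75 bases of each mRNA were searched in GRCh38 on both strands. Start sites were those of RefSeq. Alternatives were library totals, upper quartile and median-of-ratios scaling (DESeq2 1.42.0), count minima, core genes only, 1.5-fold and a re-implemented NOISeq procedure with a probability over 0.4.

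Named genes were all paralogs with their parents, the P-stalk genes, RPL5, RPL11, RPS6, RPSA, RPS27A, RPS4X, RPS19 and RPL10, the 5 highest and 5 lowest members per comparison with at least 100 counts, the 5 highest per kilobase in Ctrl, and the 2 highest and 2 lowest of each further list. RPL36 and RPS16, outside this rule, were chosen after their values were seen. A few members and listed genes are not reported. The members and lists were chosen with earlier results of these data known.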

Additional observations from a re-analysis of the deposited data

How the results depend on the processing

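With 1 library per condition, neither the spread between cultures nor a replicate left out could be examined. Scaling moved all genes of a comparison together and left their order as it was. For RT against Ctrl the median was -0.25 with library totals, -0.091 with upper quartile and 0.024 with median of ratios, against -0.034. The 9 higher genes became 15 with median of ratios and 32 with the NOISeq procedure. The 4 lower became 31 with library totals, 7 with upper quartile, 2 with median of ratios, 1 at 1.5-fold and 29 with NOISeq. NOISeq called 19.5% of all genes higher and 21.0% lower, where all genes, here and below, are those with a count in either library.

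For RT + shHDAC6 against RT the median was 0.19 with library totals. The 5 higher genes became 9 with library totals, 3 with median of ratios, 2 among core genes, 3 at 1.5-fold and 39 with NOISeq (12.8% of all genes). The 1 lower became 0 at a minimum of 100 counts, 0 among core genes and 5 with NOISeq (15.6%). For RT + shHDAC6 against Ctrl the median was -0.027 with library totals and 0.16 with median of ratios. The 18 higher became 11 with library totals, 7 at 1.5-fold and 43 with NOISeq (19.6%), and the 3 lower became 6, 1 with median of ratios, 1 at 1.5-fold and 15 with NOISeq (21.2%).

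The shares of counts were 2.26%, 1.90% and 2.14% without mitochondrially encoded genes and 2.30%, 1.87% and 2.12% with pseudogene counts added. The other 50 of 84 alternative values stayed close to the reported ones. Where no cause is shown by the alternative itself, the cause was not tested.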

Other observations

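The 78 genes of the mitochondrial ribosome, which are nuclear-encoded, had a median log2 ratio of 0.22 in RT against Ctrl. The median was -0.034 for the 84 cytosolic genes and 0.10 for the abundant genes. Of the 78, 30 were called higher (38.5%) and 3 lower (3.85%). The shares were 25.8% and 33.8% among all genes tested and 32.2% and 16.2% among the abundant genes. In RT + shHDAC6 against RT the median of the 78 was 0.082, with 7 higher (8.97%) and 3 lower (3.85%). All genes tested had shares of 19.9% and 20.9% there, and the abundant genes 5.75% and 12.6%. Against Ctrl the median of the 78 was 0.35, with 41 higher (52.6%) and 2 lower (2.56%). The shares there were 26.1% and 32.6% among all genes tested and 30.0% and 17.5% among the abundant genes. Among genes of the mitochondrial list that reach 100 counts, MRPL46 had the highest log2 ratio of RT against Ctrl, 1.41 (1.12 to 1.70). It had 150, 294 and 277 counts in the same order of libraries. MRPL38 followed with 1.04. MRPL23 had the lowest, -4.35 (-4.89 to -3.86), with 938, 34 and 18 counts, and MRPS6 the next with -0.39. The level of MRPL23 in both irradiated libraries lay far from the rest of its list.

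Of the 1599 rows for pseudogenes named after 78 of the members, 919 had a count in a library. Together they held 51873, 31547 and 35464 counts. The 324 tested had a median log2 ratio of -0.40 in RT against Ctrl, with 187 called lower (57.7%) and 30 higher (9.26%). Among all genes tested 33.8% were lower and 25.8% higher. The parent with the most pseudogene counts was RPS2, with 5325 in Ctrl. Whether these counts are reads of the parents placed on near-identical copies was not tested.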
